A study of Rattus norvegicus with 18 samples.

Results

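Quiescent beta cells of old rats were compared with quiescent beta cells of young rats by RNA sequencing. The comparison rests on 9 of the 18 libraries of the series, 4 old quiescent and 5 young quiescent, chosen by the age and replicative status in their labels. All rats gave isolated pancreatic islets that were kept overnight in RPMI1640 medium (11.1 mM glucose, 10% FBS). They were exposed to EdU at 10 micromolar, a thymidine analogue that marks cells that made DNA during the exposure. Cells were then sorted and lysed directly. All samples were treated with proteinase K for the same length of time. Each batch of islets came from 2 rats and gave a replicating and a quiescent sample, so a library stands for pooled rats, and old and young libraries stand for different batches. The sources used here do not give strain, sex, age in weeks or the sorting gate. The labels name the cell type as pancreatic islets and the series text calls the sorted cells beta cells. No table used here pairs the Ensembl rat IDs of the files with names, so genes appear under those IDs. For that reason the cell type was not checked against its defining markers, and no pathway or marker list could be counted.

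Beta cells are the insulin-secreting cells of the islet. They sense glucose through its metabolism, which closes potassium channels, opens calcium channels and releases stored insulin. In adult rodents nearly all of them rest outside the cell cycle, and their capacity to re-enter it is known to decline with age. Adult beta cells are long-lived, and an age comparison of the resting fraction is aimed at the bulk of the tissue's beta cells rather than the rare dividing ones. How well the sorted quiescent libraries represent that bulk was not checked. The question addressed here is how the transcripts of that resting fraction differ with age.

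The old quiescent libraries held 4639863 to 10365264 counts and the young ones 2723660 to 14222719. In 4 measures of the libraries (total counts, genes detected at equal depth, share of the 10 most abundant genes, mean rank correlation with the libraries of the same age) the ages did not differ past the threshold (permutation tests, two-sided, adjusted p = 0.349 to 0.722). The tests were exact for all but the last measure, whose values were computed within the true groups and not anew for each permutation. Its p is therefore approximate. The smallest p that 4 libraries against 5 allow is 0.00794. At an equal depth of 2723660 counts the old libraries held 14953 to 16790 genes with at least 1 count and the young libraries 15655 to 22286, the highest value being that of young replicate 1. On the first principal component of log2 CPM (the count of a gene scaled to the total of its library), which carried 32.3% of the variance, the 9 libraries separated by age without overlap. Old libraries lay at 3.39, 33.2, 54.2 and 49.7 (replicates 1 to 4) and young ones at -31.2, -38.5, -29.9, -12.0 and -29.0 (replicates 1 to 5). Old replicate 1 thus lay nearest to the young libraries, and its place bears on the counts given below.

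The clearest age difference was in ENSRNOG00000013928, which had the smallest p of all genes tested and was lower in old cells. Its level was 58.1, 51.9, 71.7 and 68.7 CPM in old quiescent replicates 1 to 4 and 156.7, 269.7, 303.0, 354.1 and 270.3 CPM in young quiescent replicates 1 to 5. Every old library was below every young one, and young replicate 1 was the lowest of its group. Old libraries averaged 62.6 ± 9.19 CPM (SD, n = 4), young ones 270.7 ± 72.5 CPM (SD, n = 5). The log2 difference, old minus young, was -2.12 (SE 0.20), and the gene passed edgeR's quasi-likelihood test with Benjamini-Hochberg adjustment over all genes (adjusted p = 0.000504). In bulk libraries of this kind, fewer cells that express a gene and less RNA per cell cannot be told apart.

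ENSRNOG00000039339 was also lower in old cells. It stood at 7.48, 3.17, 5.16 and 4.24 CPM in the old libraries and at 17.8, 35.5, 46.9, 34.3 and 31.1 CPM in the young ones, in replicate order. The groups did not overlap, and young replicate 1 was again the lowest young library. The log2 difference was -2.74 (SE 0.30, edgeR adjusted p = 0.000808), from means of 33.1 ± 10.4 CPM in young (SD, n = 5) to 5.01 ± 1.84 CPM in old libraries (SD, n = 4).

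Among genes that were higher in old cells, ENSRNOG00000012364 had the smallest p. Its values were tight within both ages, with 88.2, 105.9, 92.6 and 102.8 CPM in the old libraries and 38.0, 34.4, 39.3, 43.5 and 32.2 CPM in the young ones. The lowest old library was above the highest young library. Old libraries averaged 97.4 ± 8.35 CPM (SD, n = 4) and young ones 37.5 ± 4.39 CPM (SD, n = 5). That is 2.56-fold, or 1.36 in log2 units with an SE of 0.13 (adjusted p = 0.000504 in edgeR).

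ENSRNOG00000000618 showed the steepest rise of these genes, 14.6-fold. The old libraries held 40.4, 49.6, 20.1 and 26.4 CPM and the young ones 3.78, 3.19, 1.49, 1.23 and 2.56 CPM. Levels in old libraries varied among themselves more than those of ENSRNOG00000012364 (34.1 ± 13.3 CPM, SD, n = 4), but the lowest of them was above the highest young library (2.45 ± 1.09 CPM, SD, n = 5). The young values rest on 9 to 20 reads per library. The log2 difference was 3.86 (SE 0.37, edgeR adjusted p = 0.000504). These 4 genes lost their calls in a single alternative, the model that also takes in the replicating libraries, with adjusted p-values of 0.078 to 0.928 and nearly the same differences.

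**Figure D1:**
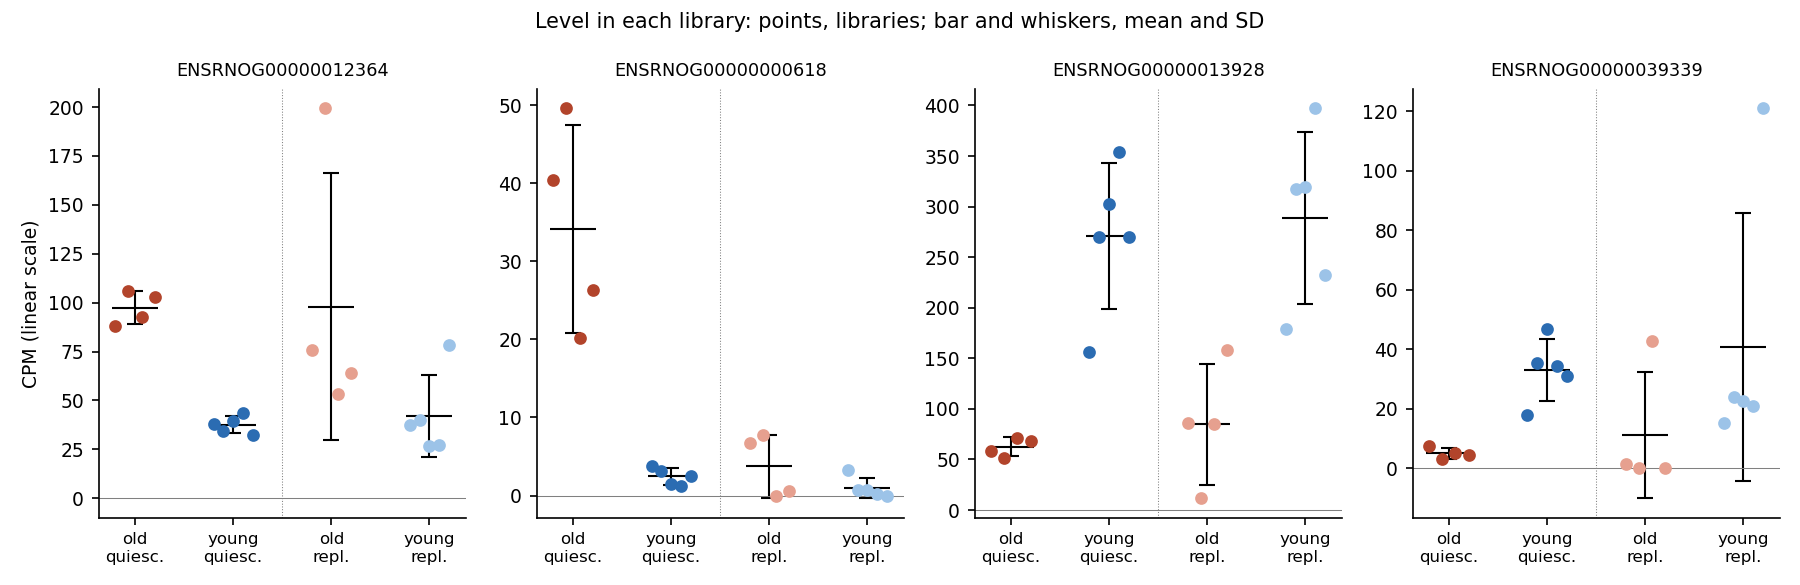
Level of 4 genes in CPM (linear y axis) in every library, by group on the x axis; points are libraries, the bar and whiskers give the mean and SD. In the quiescent libraries, left of the dotted line, old and young do not overlap for any of the 4 genes. The replicating libraries, right of it, spread more widely for all but ENSRNOG00000000618. For that gene the old replicating libraries (0 to 7.71 CPM) spread less than the old quiescent ones (20.1 to 49.6 CPM).

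The 12 genes with the smallest p in each direction, among those that changed at least 2-fold and reached 2 or more in average log2 CPM, included these 4. For all 24 the old and young quiescent libraries did not overlap. The 12 higher genes had log2 differences of 1.27 to 3.86 with a median of 2.34, and mean levels from 14.1 to 2570 CPM in old and from 1.93 to 475 CPM in young libraries. The 12 lower genes ran from -4.74 to -1.14 with a median of -2.20, and their mean levels ran from 0.266 to 62.6 CPM in old and from 6.52 to 270.7 CPM in young libraries. The most abundant of the 24 were thus among the higher genes. These genes were selected for their difference, so the ranges describe its size.

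Of 12846 genes tested, 258 (2.01%) differed between old and young quiescent cells in the edgeR fit of these 9 libraries, 135 (1.05%) higher and 123 (0.957%) lower in old. The median log2 difference was 1.26 among the higher genes and -1.52 among the lower genes, against -0.02 over all genes tested, where 10% lay below -0.68 and 10% above 0.53. A difference of at least 2-fold was seen for 94 of the higher and 91 of the lower genes, and of at least 4-fold for 35 and 47. All 258 were detected in both ages, and no gene was called because a whole group stood at 0 counts. In 841 genes (6.55%) the old and young libraries held separate ranges, 359 higher and 482 lower in old, and these held 121 of the 135 higher and 115 of the 123 lower calls. At an unadjusted p under 0.05 there were 2404 genes (18.7%), 1195 higher and 1209 lower.

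The balance of higher and lower calls was near even and depended on the scaling. It was 138 higher and 111 lower with RLE factors and 95 and 122 with upper-quartile factors. Tested with limma on the deposited log2 values, it turned to 123 higher and 179 lower. The model of all 18 libraries called 4 genes, 3 higher and 1 lower, all of them among the 258. That model takes its spread from the replicating libraries as well, whose biological coefficient of variation (relative spread beyond counting noise) was 0.912 between libraries of 1 age, against 0.286 in the quiescent fit.

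**Figure D2:**
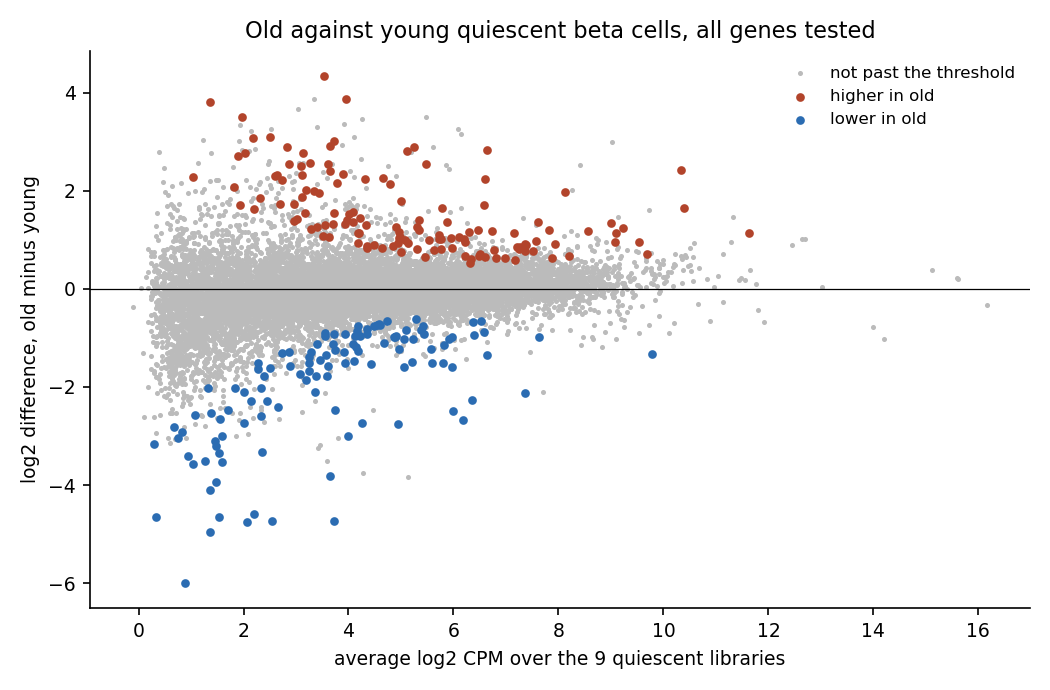
Log2 difference (old minus young, y axis) against average log2 CPM (x axis) for all 12846 genes tested in the 9 quiescent libraries; coloured points are the 258 genes past the threshold. The red points, higher in old, reach further into abundant transcripts, and the blue points, lower in old, into scarce ones.

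Genes that were higher in old cells tended to be abundant, and genes that were lower tended to be scarce. The median of the average log2 CPM was 4.97 for the higher genes, 3.73 for the lower genes and 4.31 for all genes tested. Of 2852 genes whose average log2 CPM reached 6, 44 rose and 11 fell in old cells. That split was 45 and 9 with RLE factors and 32 and 12 with upper-quartile factors. Among the 2293 genes under 2, 6 were higher and 25 lower (6 and 23 with RLE, 4 and 22 with upper-quartile factors). Between these ends the directions were about equal, with 41 higher and 44 lower of 3452 genes from 2 to 4, and 44 and 43 of 4249 genes from 4 to 6.

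The share of genes called was 1.35% under a log2 CPM of 2, 2.46% from 2 to 4, 2.05% from 4 to 6, 1.79% from 6 to 8 and 2.58% at 8 or more. The smallest difference that was called fell from 1.72 on the log2 scale in the scarcest class to 0.54 between 6 and 8. The median absolute difference over all genes of a class was 0.55 under 2 and 0.18 between 6 and 8, so the differences of scarce genes also scattered more.

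**Figure D3:**
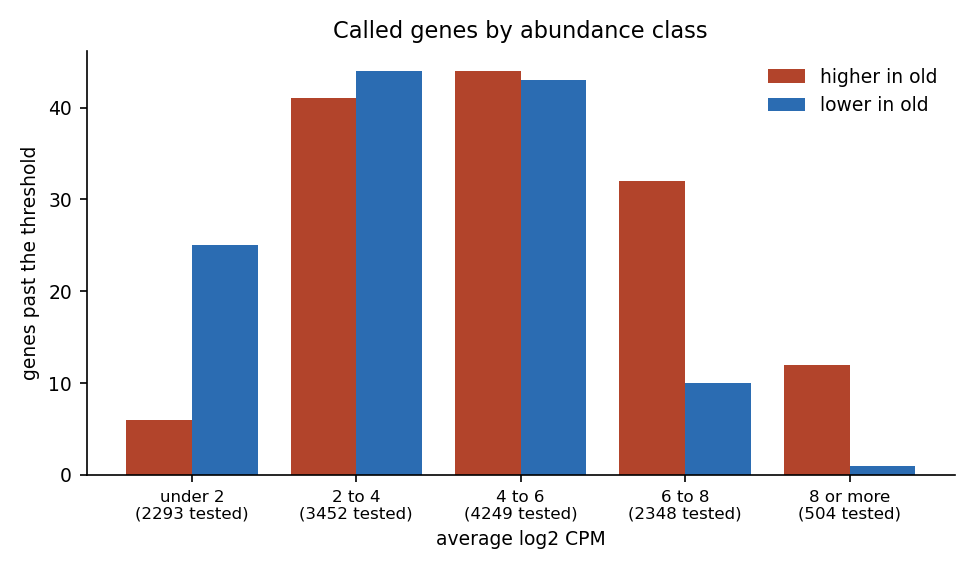
Number of genes past the threshold (y axis) by average log2 CPM (x axis, with the genes tested in each class), split into higher and lower in old quiescent cells. Lower genes outnumber higher ones 25 to 6 in the scarcest class, and higher genes outnumber lower ones 12 to 1 in the most abundant class.

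The 10 genes with the most counts summed over the 9 libraries were taken as a fixed set. They held 25.9% ± 1.69 of the counts in old (SD, n = 4) and 27.6% ± 1.92 in young libraries (SD, n = 5). None of the 10 genes with the highest mean over the 9 libraries, at 5631 to 73535 CPM on average, passed the edgeR test (smallest adjusted p = 0.161). Of these 10, 2 had an unadjusted p under 0.05, limma-voom with quality weights called 3 and DESeq2 called 1. Their log2 differences ran from -1.01 to 1.02. Differences of up to about 2-fold were therefore present in single abundant genes without passing the test. Of the 50 most abundant, 3 were higher in old and 0 lower in the edgeR test, where 17 had an unadjusted p under 0.05, DESeq2 called 7 and limma-voom 21. The largest of these differences was 2.42 on the log2 scale. Of the 100 most abundant, 5 were higher and 1 lower. Over all 12846 genes tested, 258 (2.01%) passed the edgeR test and 2404 (18.7%) had an unadjusted p under 0.05. DESeq2 called 860 of the 12846 and limma-voom 1402.

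The higher genes together took 2.32% ± 0.276 of the counts in old (SD, n = 4) and 1.07% ± 0.123 in young quiescent libraries (SD, n = 5). For the lower genes these shares were 0.204% ± 0.0556 and 0.525% ± 0.0705. The lists were chosen in these libraries, so the shares show how much of the RNA was involved and do not test the difference. In single libraries the higher genes took 2.03, 2.18, 2.66 and 2.41% in old replicates 1 to 4 and 1.25, 1.05, 1.10, 1.00 and 0.926% in young replicates 1 to 5. Both replicates numbered 1 were the nearest of their group to the other age.

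How alike the libraries of 1 age were was read from fits that left out each library in turn. With a library absent from the fit, its level could be placed between the remaining groups for genes it had not helped to choose. On a scale where 0 is the mean of the other young libraries and 1 that of the other old ones, the median position over the 60 genes with the smallest p was 0.94, 0.92 and 0.95 for old replicates 2, 3 and 4. For young replicates 2 to 5 it was 0.02, -0.06, 0.04 and -0.06. Old replicate 1 lay at 0.47 and young replicate 1 at 0.60, each near the middle. On their own side of the midpoint stood 28 of 60 genes for old replicate 1 and 27 of 60 for young replicate 1, against 51 to 58 of 60 for each of the other 7 libraries. Over all genes called in each fit, which number from 61 to 688, young replicate 4 also stood off, at 0.27 with 168 of 240 genes (70.0%) on its own side. Old replicate 1 then lay at 0.37 with 243 of 688 and young replicate 1 at 0.54 with 224 of 489. The other 6 libraries lay at 0.93 to 0.97 (old) and -0.03 to 0.01 (young). The genes differ from fit to fit, and these positions are given as a description with no test. They hold for genes chosen by p. On the first principal component young replicate 1 lay at -31.2, farther from the old libraries than young replicates 3, 4 and 5 (-29.9, -12.0 and -29.0). On the second component, with 20.9% of the variance, it lay at 50.3, the highest of all the quiescent libraries.

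The number of called genes followed the same libraries. It rose from 258 to 688 without old replicate 1 and to 489 without young replicate 1. It was 78, 86 and 61 without old replicates 2, 3 and 4, and 88, 68, 240 and 81 without young replicates 2 to 5. In all 9 of these fits 46 genes were called, 24 higher and 22 lower in old, with median log2 differences of 2.21 and -2.19, and the 4 genes named above were among them. Old replicate 1 held 8919218 counts and young replicate 1 held 4893860, both inside the range of the other libraries. Other measures set them at an end of their group. Each had the most genes at equal depth (16790 old, 22286 young) and the lowest mean rank correlation with its own age (0.962 old, 0.947 young). Old replicate 1 also had the lowest share of the 10 most abundant genes (23.6%). What these contribute to their positions was not tested.

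**Figure D4:**
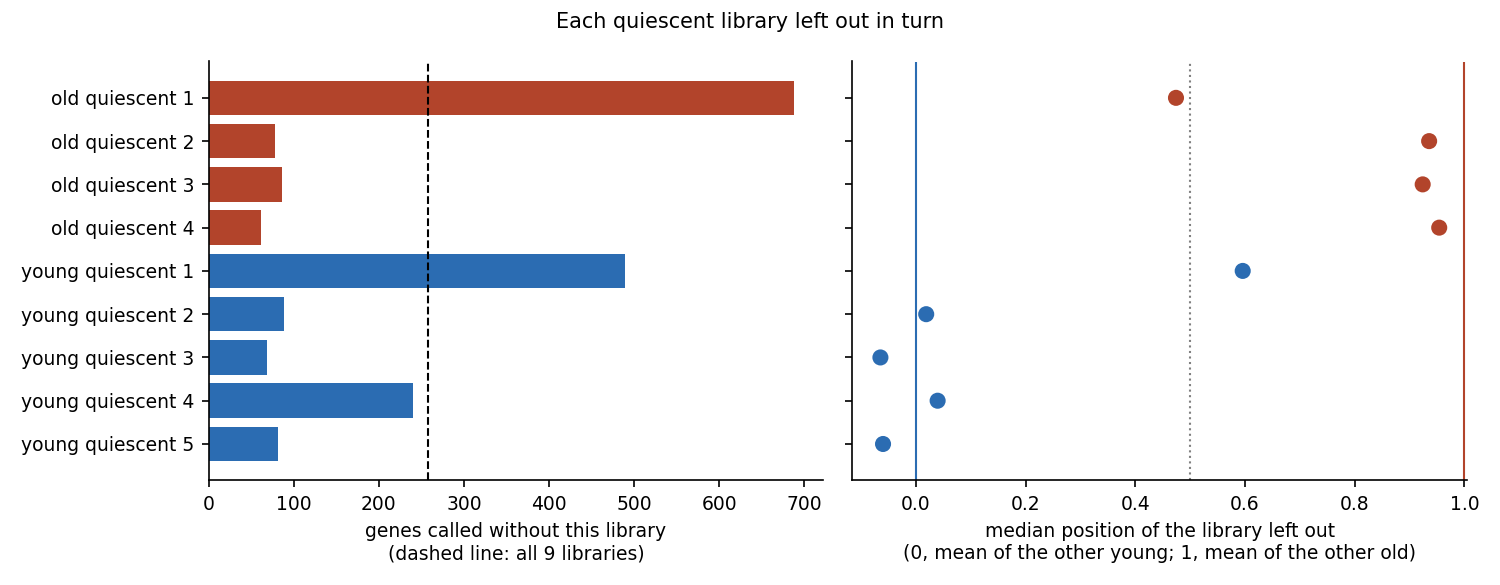
Left, number of genes called (x axis) when each quiescent library is left out, with a dashed line at the 258 called with all 9; right, median position of the left-out library over the 60 genes with the smallest p in the fit without it (x axis, 0 for the mean of the other young and 1 for the mean of the other old libraries). Replicate 1 of both ages lies near the middle, at 0.47 and 0.60, and the count rises without either of them.

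The same age contrast in the 9 replicating libraries, 4 old and 5 young, was used to see whether the differences recurred in cells that had made DNA. These libraries were not used to choose the 258 genes. They come from the same islet batches, per the series text, so they are other cells and not other rats. In the replicating libraries 62 of 13308 genes (0.466%) were called, 58 (0.436%) higher and 4 (0.0301%) lower in old. Of the 258 genes, 244 could be tested there.

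Of the 129 higher genes tested in the replicating libraries, 112 (86.8%) were also higher in old replicating cells, where the share was 59.3% among all genes above 0 in quiescent cells. Of the 115 lower genes tested, 93 (80.9%) were also lower, against 60.6% among all genes below 0. The median log2 difference of the higher genes tested in both was 1.21 in quiescent and 0.89 in replicating libraries, with the middle of the values from 0.29 to 1.48 (quartiles). That of the lower genes was -1.49 and -0.94 (quartiles -1.92 to -0.17). Past the threshold in replicating cells were 7 higher genes (5.43% of the 129) and 1 lower gene (0.870% of the 115), all in the same direction. Across the 12184 genes tested in both, the log2 differences correlated at 0.360 (Pearson) and 0.291 (Spearman), values that describe genes of libraries from shared batches and carry no p.

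Summed over the lists, the groups also stood apart in the replicating libraries. The higher genes took 1.60, 1.92, 2.17 and 2.24% of the counts in old replicating replicates 1 to 4 and 1.36, 1.05, 1.09, 1.17 and 0.944% in young replicating replicates 1 to 5. The lower genes took 0.446 to 0.596% in old and 0.713 to 0.953% in young replicating libraries. Neither pair of groups overlapped. The lists were chosen for their age difference in the partner samples of these batches.

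**Figure D5:**
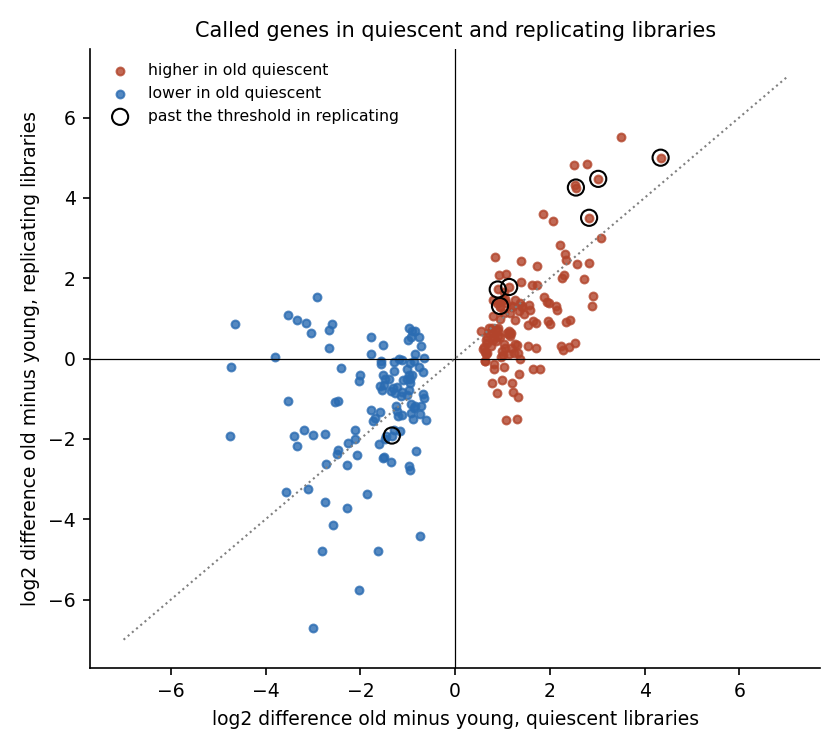
Log2 difference old minus young in the quiescent libraries (x axis) and in the replicating libraries (y axis) for the 244 called genes tested in both; the dotted line marks equal differences and black rings the 8 genes past the threshold in replicating cells. Most points lie in the lower left and upper right parts of the plot, 93 of 115 lower and 112 of 129 higher genes.

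For the 4 genes named above, mean levels in replicating cells leaned the same way. The spread in CPM was wider than in quiescent cells for all but ENSRNOG00000000618, whose old replicating libraries spread less in CPM than its old quiescent ones. ENSRNOG00000013928 stood at 11.6 to 158.0 CPM in old and 178.9 to 397.0 CPM in young replicating libraries, again without overlap. Its log2 difference there was -1.77 (SE 0.51, edgeR adjusted p = 0.164). ENSRNOG00000012364 stood at 53.1 to 199.2 CPM in old and 26.8 to 78.2 CPM in young replicating libraries, which overlapped (log2 difference 1.19, SE 0.46, edgeR adjusted p = 0.323). Leading values came from a single library in several of these groups.

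ENSRNOG00000039339 had 0 reads in old replicating replicates 2 and 4, 1.32 CPM in replicate 1 and 42.8 CPM in replicate 3, against 15.1 to 120.9 CPM in young replicating libraries (log2 difference -1.87, SE 1.50, edgeR adjusted p = 0.748). ENSRNOG00000000618 was scarce in replicating cells of both ages, at 0 to 7.71 CPM in old and 0 to 3.26 CPM in young libraries, and did not pass the filter for the test there. Its level of 20.1 CPM or more was thus reached in the old quiescent libraries and in no library of the other groups.

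Whether an age difference differed between quiescent and replicating cells was tested as an interaction over all 18 libraries. Of 14920 genes 4 passed the threshold (0.0268%), all with a positive interaction and 1 of them among the 258. This fit does not pair the samples of a batch, since the labels do not say that the replicate number marks the batch. With that number within age as a block, 11 genes passed, 2 positive and 9 negative, and 1 was shared with the 4. None of the 4 named genes passed (interaction adjusted p = 0.734 to 0.941 in edgeR), so their age differences are not shown to be particular to quiescent cells. Of the 258 genes, 40 had an unadjusted interaction p under 0.05 in edgeR, against 1513 of all 14920 genes. The 258 were chosen by their quiescent difference, which is a part of the interaction, so the 40 carry no test. With the wide spread of the replicating libraries, a p above the threshold does not show equal differences.

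The 1 gene past the threshold was ENSRNOG00000024848, named here after its values were seen. It held 38.2, 65.8, 95.9 and 115.6 CPM in old quiescent and 19.1, 6.74, 8.09, 9.07 and 8.66 CPM in young quiescent libraries, without overlap and with both replicates numbered 1 nearest to the other age. The log2 difference was 2.90 (SE 0.38, edgeR adjusted p = 0.0054). In replicating cells it had reads in 1 of 4 old libraries, 5 reads in replicate 2, and stood at 0.822 to 10.4 CPM in the young ones. Levels were thus higher in old among quiescent cells. Among replicating cells the mean was lower in old (0.132 CPM against 3.85 CPM in young), but the gene did not pass the filter for the test there. The interaction was 7.37 in log2 units with an SE of 1.23 (adjusted p = 0.0291 in edgeR). The old replicating side of this gene rests on 5 reads in all. Its interaction was called in 15 of 27 alternatives, with edgeR adjusted p = 0.0494 when the replicate number was a block. It missed the threshold in limma-voom (adjusted p = 0.539), with counts thinned to equal depth (edgeR adjusted p = 0.0612) and without any 1 of 10 libraries (edgeR adjusted p = 0.0527 to 0.101). Those 10 were old quiescent replicates 2, 3 and 4, young quiescent replicates 1 to 5 and young replicating replicates 2 and 3. The interaction was positive in all 27, from 6.59 to 10.7. The quiescent difference itself missed the threshold in the 4-group model (edgeR adjusted p = 0.231) and with the replicate number as a block across ages (edgeR adjusted p = 0.0696).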

How the data were processed

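RNA libraries were made from sorted cells with the SMARTer stranded kit for total RNA, per the labels. The submitters' processing notes list STAR, DESeq2 and rn6. The sources used here do not give the counting program, annotation or strand setting, so overlapping, antisense and near-identical genes carry an unmeasured uncertainty. The authors deposited raw counts for 27654 gene IDs, not normalized. Their deposited log2 values equal log2 of the count over a median-of-ratios size factor, plus 1 (largest difference 5.2e-14). The 47357 genes of the RefSeq table (assembly GRCr8) hold 0 Ensembl IDs, so 0 IDs were matched, no sequence is printed and the planned gene lists were not run.

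Counts of the 9 quiescent libraries were fitted in R 4.3.3 with edgeR 4.0.16: filterByExpr by group (minimum count 10, total 15; 12846 genes kept, 14808 removed), TMM scaling, robust quasi-likelihood F test, Benjamini-Hochberg adjustment over all genes tested, threshold 0.05. The replicating libraries and the interaction (18 libraries) were fitted likewise. The SE is the log2 difference over the square root of F. Printed CPM use TMM factors over all 18 libraries; log2 CPM for components and positions add a prior count of 2. The fit was also run on simulated counts in which all libraries had the same spread, with no outlying library. That run checks how the fit was set up and is no support for the calls reported here. Named genes are the 2 IDs per direction with the smallest p among those past a log2 difference of 1 in size and reaching 2 in average log2 CPM; ranges over the leading 12 per direction use the same limits. Alternatives used limma 3.58.1 and DESeq2 1.42.0. Comparison, lists and tests were chosen with earlier results of these data known. In the fits of the 9 quiescent or the 9 replicating libraries, p-values measure the spread between batches of pooled rats. Fits of all 18 libraries without a block treat the quiescent and the replicating sample of a batch as independent. Their p-values do not measure that spread alone. No sequencing batch is given. Replicate numbers are shared by old and young labels as names, and the ages stand for different islet batches, so nothing was paired. Deviations of same-numbered old and young libraries correlated at 0.17, -0.04, -0.18 and 0.35, which cannot decide whether they shared a processing step.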

Additional observations from a re-analysis of the deposited data

Results flagged for a closer look

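Single libraries stood far from the rest of their group in 7 of 34 sets of 4 or 5 values examined (Dixon's gap test at 95%). Chance alone gives about 1 in 20 for independent sets of normally distributed values. The sets here share libraries, and gene levels entered as CPM on the linear scale, so 7 of 34 cannot be judged against that rate. All 7 were in replicating libraries, and the 9 quiescent libraries gave none for the 4 named genes, the 4 library measures or the shares of the called genes. The named genes and called lists were chosen by p in the quiescent libraries, which favours a small spread there. For these, the absence of outliers in quiescent libraries is therefore no finding about the libraries. ENSRNOG00000012364 stood at 199.2 CPM in old replicating replicate 2 and at 78.2 CPM in young replicating replicate 5. ENSRNOG00000039339 stood at 42.8 CPM in old replicating replicate 3 and at 120.9 CPM in young replicating replicate 5. ENSRNOG00000000618 stood at 3.26 CPM in young replicating replicate 1. The mean log2 CPM of the 135 higher genes minus that of the 123 lower genes was 1.78 in old replicating replicate 1, against 2.70 to 2.84 in the other old replicating libraries. The lower genes took 0.713% of counts in young replicating replicate 1, the lowest of that group. Quiescent and replicating libraries of the same number come from 1 batch if the numbers mark batches, which the labels do not say; each of the 9 quiescent libraries deviated most like the replicating library with its own number (r = 0.07 to 0.51).

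For ENSRNOG00000024848 the old minus young difference was 7.37 higher in quiescent than in replicating cells in log2 units, with an SE of 1.23 (interaction adjusted p = 0.0291 in edgeR). The old replicating libraries held 5 reads of it in all, in 1 of 4 libraries. The call was lost in 12 of 27 alternatives: thinned, in limma-voom, and in 10 of 18 fits that left out a single library.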

How the results depend on the processing

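The count of 258 genes in quiescent cells stayed within 1.5 times under RLE factors (249), upper-quartile factors (217), a filter of 1 CPM in every library of a group (299), removal of the 10 most abundant genes (244), thinning (184) and limma on the deposited log2 values (302). It was 860 in DESeq2, 1402 in limma-voom with quality weights, 522 with no low-count filter and 4 in the 4-group model, and it ran from 61 to 688 with single libraries left out. With the replicate number as a block it was 94. The deviations of same-numbered old and young libraries correlated at 0.17, -0.04, -0.18 and 0.35. These 4 values cannot decide whether same-numbered libraries of the 2 ages shared a processing step, and that was not tested. Each of the 4 named genes kept its call in 19 of 20 alternatives, the exception being the 4-group model. The share of higher calls with the same sign in replicating libraries ran from 76.3 to 93.5% and that of lower calls from 75.9 to 96.0% in the 19 alternatives other than the 4-group model, a check added after seeing the data. Only the quiescent call lists changed in this check. The signs in replicating libraries stayed those of the main fit, and the share over all genes was not recomputed. How the agreement depends on the processing of the replicating libraries was thus not tested. In the replicating libraries the count of 62 became 29 with upper-quartile factors, 538 in DESeq2, 229 in limma-voom, 314 with no filter, 113 with the 1 CPM filter and 32 with the replicate block, and 10 to 117 with single libraries left out. The 4 interaction calls became 296 in DESeq2, 2 in limma-voom, 1 with no filter, 15 with the 1 CPM filter, 0 thinned and 11 with the replicate block (numbers within age), and 0 to 231 with single libraries left out; the 9 fits at 0 in edgeR held 1206 to 1395 genes at an unadjusted p under 0.05. The cause of these moves was not tested. With single libraries left out, the difference in total counts ran from -382585 to 2492180 and that in genes detected from -2777 to -1119. The difference in the share of the 10 most abundant genes ran from -2.25 to -0.902 percentage points and that in mean rank correlation from -0.00319 to 0.0108. None of these library measures passed the threshold with any library left out (permutation tests, smallest adjusted p = 0.114). That smallest value belongs to the mean rank correlation, for which the test is not exact. Under an average log2 CPM of 2, the smallest difference called was 1.72 on the log2 scale. What depth contributes to that was not tested.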
